A study of Mus musculus with 8 samples.

Results

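Trnp1 is a single gene measured by 2 probes on a mouse expression array, out of 55681 non-control probes. Both probes were taken by their gene name and are described apart, in all 8 arrays. The gene was chosen by its signal difference between the siRNA groups in these same arrays, so that difference is given below as a description, with no test. Both probes were well above background on 8 of 8 arrays, by the scanner software's own call, and so passed the filter that kept 26828 probes.

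The arrays hold RNA of bone marrow-derived macrophages, which are macrophages grown in culture from marrow precursors, of male C57BL/6J mice; the sources used here give no age. In the first group the cells were transfected with siRNA against the terminal loop of RNY, the Y RNAs, which are small noncoding RNAs bound by the Ro60 protein. In the second group the cells received a control siRNA (Ct), so all cells of both groups went through a transfection. Each group has 4 arrays, and the replicate numbers, 1 to 4 in both groups, are read here as 4 mice. The siRNAs, their dose and the time of harvest are not described further. None of the probes carries the name of a Y RNA, so the knockdown itself was not checked here.

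Trnp1 encodes TMF1-regulated nuclear protein, a small basic protein of the nucleus. It is named for TMF1, a Golgi-associated protein that lowers its amount through the ubiquitin-proteasome route. In mouse neural progenitors Trnp1 is known to promote proliferation and self-renewal and to affect how nucleoli, nuclear speckles and heterochromatin are organised; it is not a textbook gene of macrophages.

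Both probes are 60 bases long and match the same RefSeq transcript, NM_001081156, per the array files. The downstream probe (A_55_P2123673) lies at chr4:133047017-133047076 on the minus strand of mm9 and starts at transcript position 1592. The upstream probe (A_55_P1990373) lies at chr4:133047523-133047582 on the same strand and starts at position 1086. They are 506 bases apart both on the transcript and on the chromosome, so no intron lies between them. Whether they fall in coding or noncoding sequence is not annotated in the files used here. Bases 31 to 60 of each probe are shown, because the probes differ in their response and in this stretch only the downstream probe holds the hexamer AATAAA, in capitals:
downstream probe: cgcaagaagAATAAAtcgaaataacgagag
upstream probe: atttgcctttgctgatacagaggcccgaga
AATAAA is the letters of the canonical polyadenylation signal, and here it is only a match of letters. Whether it bears on the difference in response between the probes was not tested. It begins at base 40 of the downstream probe, and 10.1% of all 55681 probes hold it on the printed strand (13.5% on either strand, where the reverse complement is TTTATT). The upstream probe holds it on neither strand. The GC content was 38.3% for the downstream probe and 50% for the upstream probe, against a median of 43.3% over all probes.

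The downstream probe gave a higher Trnp1 signal with the Y RNA siRNA than with the control siRNA in every mouse. A level here is the log2 processed signal of a probe minus the 75th percentile over its array. In the arrays of the Y RNA siRNA the level was -0.62, -0.72, -0.40 and -0.59 in mice 1 to 4, against -1.42, -1.51, -1.43 and -1.36 in the control arrays of the same mice. The groups did not overlap: the lowest array of the Y RNA siRNA, that of mouse 2, lay 0.64 above the highest control array, that of mouse 4. The mean level was -0.58 ± 0.13 with the Y RNA siRNA and -1.43 ± 0.06 with the control siRNA (SD, n = 4 each). The difference, Y RNA siRNA minus control, was 0.85 ± 0.08 on the log2 scale (SE of the fit across all probes), a 1.80-fold higher signal. By mouse the difference was 0.80, 0.79, 1.03 and 0.77 in mice 1 to 4, largest in mouse 3. On the scanner's linear scale the processed signal, from which background is already subtracted, was 335, 380, 488 and 385 in mice 1 to 4 with the Y RNA siRNA. It was 195, 224, 227 and 228 in the controls of mice 1 to 4. The group means were 397 ± 64.5 with the Y RNA siRNA and 218 ± 15.7 with the control siRNA (SD, n = 4 each).

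The upstream probe gave a smaller difference, and its groups overlapped. Its level with the Y RNA siRNA was -3.20, -3.46, -3.21 and -3.20 in mice 1 to 4, against -3.39, -3.73, -3.66 and -3.40 in the control arrays. Within each mouse the Y RNA siRNA array was higher, but the Y RNA siRNA array of mouse 2 lay below the controls of mice 1 and 4. The mean level was -3.27 ± 0.13 with the Y RNA siRNA and -3.55 ± 0.18 with the control siRNA (SD, n = 4 each), a difference of 0.28 ± 0.10 (SE), or 1.21-fold. By mouse the difference was 0.20, 0.27, 0.45 and 0.20 in mice 1 to 4. Mouse 3 again had the largest difference. Its processed signal was 56.4, 56.8, 69.5 and 62.8 in mice 1 to 4 with the Y RNA siRNA and 49.7, 47.9, 48.3 and 55.4 in the controls.

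**Figure D1:**
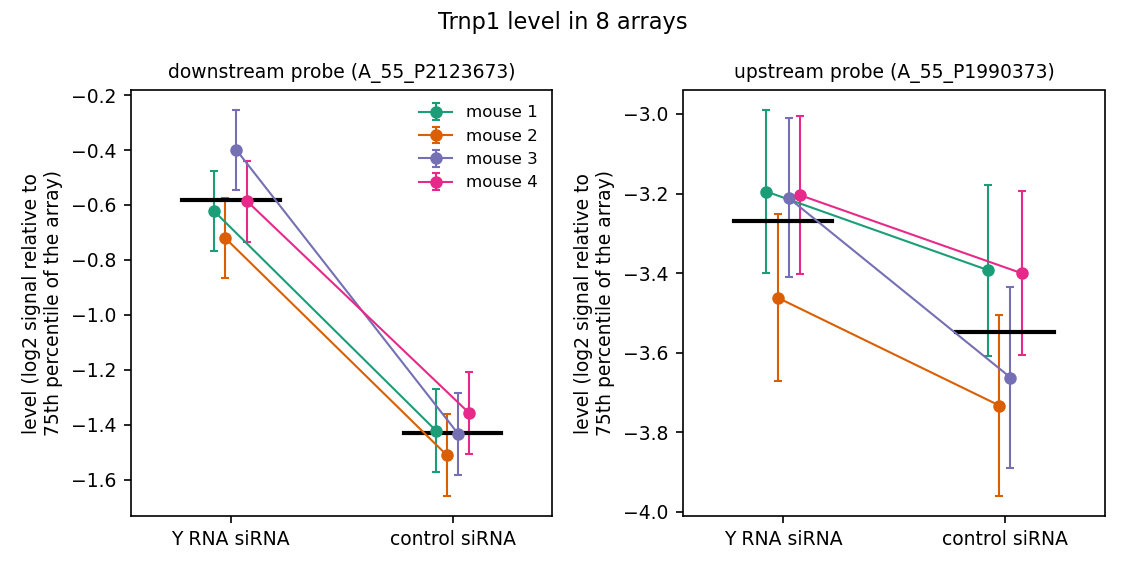
Level of Trnp1 (y axis, log2 processed signal minus the array's 75th percentile) on the downstream probe (left panel) and the upstream probe (right panel). Points are arrays, lines join the 2 arrays of a mouse, error bars are the spot error given by the scanner software and black bars are group means. On the downstream probe the 4 arrays of the Y RNA siRNA lie between -0.72 and -0.40, all above the control arrays; on the upstream probe the groups overlap.

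The spot error of the scanner software bears on which arrays can be told apart. It was 10.1% to 10.4% of the signal for the downstream probe, or 0.15 on the log2 scale, and 13.8% to 15.8% for the upstream probe, or 0.20 to 0.23. With the arrays ordered by the level of the downstream probe, 1 of 7 steps between neighbours in the order was larger than the error of the step, and this was the step of 0.64 between the groups. That step is the group difference by which the gene was chosen. Neighbours in a sorted order are the closest arrays, so the small steps do not show that all arrays of a group are alike. The Y RNA siRNA arrays of mice 2 and 3 lay 0.32 apart, where the errors of the steps were 0.206 to 0.212. With the upstream probe, 0 of 7 steps exceeded the error of 0.28 to 0.32, though its highest and lowest arrays lay at -3.20 and -3.73. A second measure of technical error came from 255 kept probes that are spotted at least 5 times on each array. Among the 40 to 55 of them per array with a signal in the range of the Trnp1 spots, the median SD between spots of a probe was 0.098 to 0.14 on the log2 scale, depending on the array.

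The upstream probe sat close to the background that was subtracted from it, and its difference is nearly absent from its raw signal. Its raw spot median was 111, 108.5 and 124 in mice 1 to 3 with the Y RNA siRNA and below all of these in mouse 4, against 106, 104.5, 105.5 and 115 in the controls of mice 1 to 4, so that in mouse 4 the control spot was the higher one. The background subtracted was 52.2 to 59.9, and the processed signal was 0.809 to 1.20 times that background. For the downstream probe the raw spot median was 363, 421, 521 and 413.5 in mice 1 to 4 with the Y RNA siRNA and 231, 276, 267 and 275 in the controls. There the background was 54.2 to 63.2 and the processed signal 3.55 to 7.72 times as large. None of the 16 spots was flagged as uneven, as an outlier or as saturated.

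**Figure D2:**
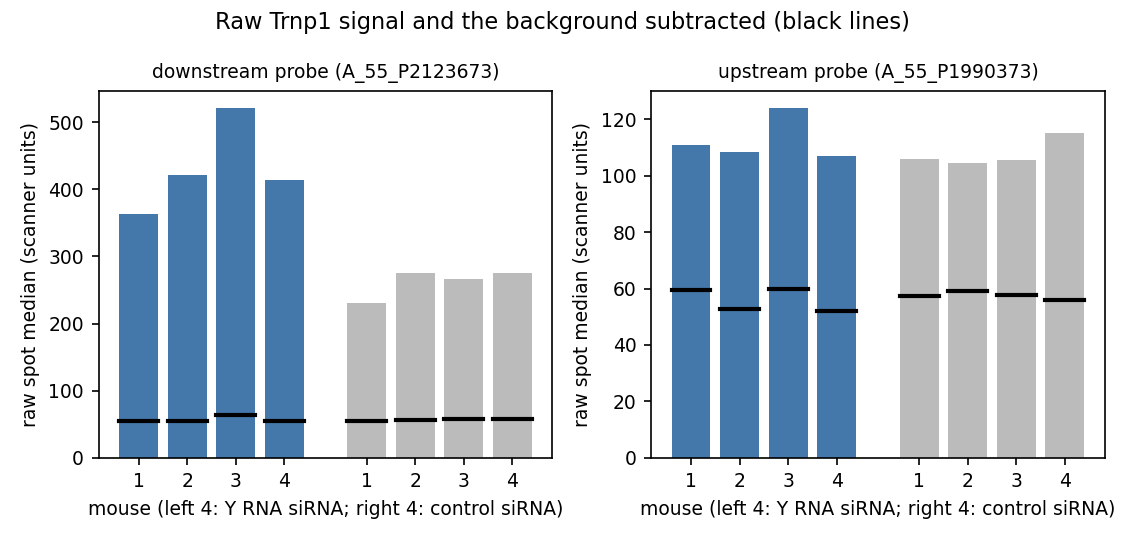
Raw spot median of both Trnp1 probes in scanner units (bars, axis from 0), with the 4 arrays of the Y RNA siRNA in blue and the 4 control arrays in grey, by mouse; black lines mark the background that the scanner software used. The downstream probe reaches 363 to 521 with the Y RNA siRNA and 231 to 276 in the controls, while the upstream probe stays between 104.5 and 124 in all 8 arrays.

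The size of the difference depended on the background correction and on the table used, more so for the upstream probe. With normexp, a background correction that adds an offset of 50, the difference was 0.68 on the downstream probe and 0.083 on the upstream probe. In the authors' deposited value table it was 0.70 and 0.082, and there the upstream probe was lower with the Y RNA siRNA in mouse 4 (a difference of -0.053). Leaving out any 1 array kept the downstream difference between 0.79 and 0.89 and the upstream one between 0.22 and 0.34. The upstream difference of 0.34 was reached without the Y RNA siRNA array of mouse 2, which lay apart from the other 3 in its group, and without both arrays of mouse 2 it was 0.28. Without the control array of mouse 4, which had an RNA integrity number of 8 where the other 7 arrays had 10, the differences were 0.87 and 0.33.

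**Figure D3:**
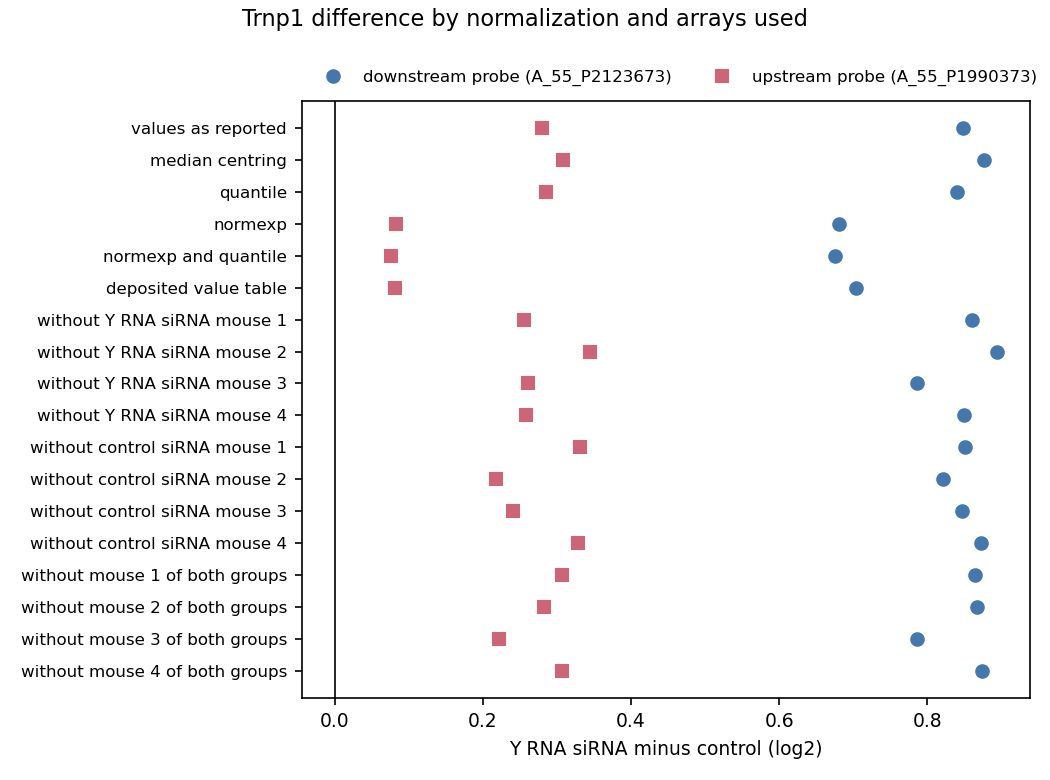
Difference between Y RNA siRNA and control (x axis, log2) for the downstream probe (circles) and the upstream probe (squares), with one row for each normalization and each set of arrays left out. The downstream probe stays between 0.67 and 0.89; the upstream probe lies at 0.076 to 0.083 with the deposited table, normexp, and normexp with quantile, and at 0.22 to 0.34 in the others.

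The probes disagreed in size more than most probe pairs on the array. Their differences were 0.57 apart on the log2 scale, and by mouse the downstream difference exceeded the upstream one by 0.60, 0.52, 0.58 and 0.57 in mice 1 to 4. Among 2581 transcripts with exactly 2 kept probes the median gap was 0.054, and 29 of them, or 1.12%, had a gap at least that of Trnp1. Trnp1 was chosen by its difference in these arrays, which bears on its gap, so this share is a description and no test. Averaged over both probes Trnp1 was 0.56 higher, or 1.48-fold. Within the siRNA groups both probes also varied together, with a Pearson's r of 0.63 between deviations from the group means, a description over 8 arrays that share 4 mice.

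Some features of the whole data set stand beside these values. On each array 48.7% to 50.7% of spots exceeded background by the software's call, 0 were saturated, and any pair of arrays correlated at a Pearson's r of 0.988 to 0.997. The slide was the same for all 8 arrays, as was the scan. Slide columns 1 and 3 held the Y RNA siRNA arrays and columns 2 and 4 the controls, so slide column and siRNA cannot be told apart. Within 10 rows and columns of the downstream Trnp1 spot, 181 kept probes had a median difference of 0.0096, with 90% of them between -0.15 and 0.16 and the highest at 0.52. Around the upstream spot, 189 probes had a median of 0.0057 and a highest value of 0.37. In limma 3.58.1 without a block, 0 of 26828 probes had an adjusted p under 0.05 (0%), and 884 had an unadjusted p under 0.05 (3.30%), 413 of them higher with the Y RNA siRNA (1.54%) and 471 lower (1.76%). A fixed block for the mouse gave 0 (0%) and 2283 (8.51%), and a random block 3 (0.0112%) and 2372 (8.84%). The 3 were the downstream Trnp1 probe, a probe of Cst7 and an unnamed probe, A_55_P2069530, and for Trnp1 this is no test, since these arrays chose it. Being higher in all 4 mice, as both Trnp1 probes were, held for 9.84% of kept probes, and being lower in all 4 for 8.67%.

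A difference as large as that of the downstream probe was uncommon on the array, and the probes that shared it had wider spread within groups. The median probe differed by 0.062 in size, and 65 other probes differed at least as much as the downstream Trnp1 probe. In 6 of the 65 the groups did not overlap, against 2.43% of all kept probes (651 of 26828), a count that is no test, because these probes were chosen by size. In 31 of the 65 the difference went the same way in all 4 mice, as in the downstream Trnp1 probe. Among all kept probes 9.84% were higher and 8.67% lower in all 4. The median SD within groups of the 65 was 1.04, against 0.10 for Trnp1, and 0 of the 65 had a smaller one. This SD also holds the spread between mice. Trnp1 was chosen by its group difference in these arrays, so its size and SD beside those of the 65 are a description and no test. By gene, 24 of 12322 named genes had a larger difference. These are the 19168 gene names with a kept probe without the olfactory, predicted, Riken and unnamed genes. The 3 just above Trnp1 were the amino acid transporter gene Slc36a2 (-0.86 ± 0.28, SE), the ribosomal protein gene Rpl4 (0.86 ± 0.43) and the chemokine gene Ccl5 (0.87 ± 0.22). The 3 just below were the transcription factor gene Sox14 (0.85 ± 0.51), the NADPH oxidase gene Nox1 (-0.85 ± 0.32) and the scavenger receptor gene Marco (0.84 ± 0.36). The groups of all 6 overlapped, but Ccl5 and Marco were higher and Slc36a2 and Nox1 lower in 4 of 4 mice. The Ccl5 difference was 0.88, 0.70, 1.14 and 0.75 in mice 1 to 4. Rpl4 was higher in 2 of 4 mice, with differences of 1.84, -0.037, 1.77 and -0.11 in mice 1 to 4, and was at 0.55 without the control array of mouse 3. The Sox14 difference was 1.43, 1.94, -0.0047 and 0.014 in mice 1 to 4, and 0.50 or 0.53 without the Y RNA siRNA array of mouse 2 or of mouse 1. With normexp Slc36a2, Nox1 and Sox14 were smaller in size, at -0.39, -0.26 and 0.35.

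No gene measured beside Trnp1 on chromosome 4 had a difference of its size. Of 15 named genes with a kept probe within 300 kb on mm9, 8 lay above 0 in the Y RNA siRNA minus control difference and 7 below, against 52.3% of all probes above 0. In limma, 0 of the 15 had an adjusted or an unadjusted p under 0.05, and their median difference was 0.0027, against 0.0049 over all probes. The nearest, 41.6 kb away, was Nudc, which encodes a nuclear distribution protein that works with dynein. Its level was 3.08, 3.21, 3.41 and 3.16 in mice 1 to 4 with the Y RNA siRNA and 3.03, 3.31, 3.38 and 3.13 in the controls, a difference of 0.0033 ± 0.10 (SE) whose sign turned with normexp, quantile normalization and the deposited table. Gpatch3 was at -0.04 ± 0.05, Gpn2, a GTPase of RNA polymerase II assembly, at -0.0039 ± 0.06, Sfn, the 14-3-3 sigma protein, at 0.11 ± 0.09, and the palmitoyltransferase gene Zdhhc18 at 0.10 ± 0.06 (SE). The sign of Gpn2 turned with median centring and with normexp. By mouse, Sfn and Zdhhc18 were higher in 4 of 4, as were 9.84% of kept probes. Gpatch3 was lower in 3 of 4 mice, and Gpn2 was higher in 2 of 4. The largest neighbour value was that of the kinase gene Map3k6, 238 kb away, at 0.36 ± 0.44. There the control of mouse 1 lay at -2.16 and the other 3 controls between -0.33 and -0.09, so that array sets the value, and a second Map3k6 probe was at 0.02 ± 0.19. Kdf1, Nr0b2 and Tent5b, also within the window, had no probe that passed the filter.

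**Figure D4:**
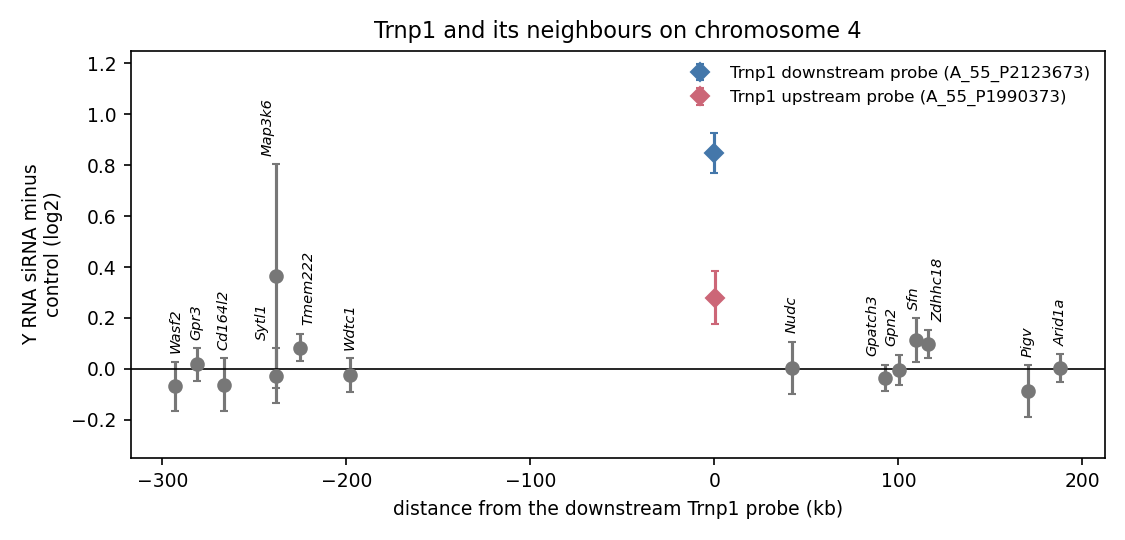
Difference between Y RNA siRNA and control (y axis, log2, with SE bars) against the distance from the downstream Trnp1 probe in kb, for 14 of the neighbouring genes (grey) and the Trnp1 probes (diamonds). All neighbours plotted other than Map3k6, whose bar is the longest, lie between -0.09 and 0.11.

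Tmf1, the gene of the protein that Trnp1 is named for, showed no difference beyond its error. On its brighter probe (chromosome 6, 97105315 to 97105374) its level was 1.61, 1.52, 1.57 and 1.58 in mice 1 to 4 with the Y RNA siRNA, and 1.41, 1.58, 1.57 and 1.61 in the controls. The groups overlapped, with the control of mouse 1 the lowest array. The difference was 0.03 ± 0.06 (SE, limma adjusted p = 1.00), and it was -0.017 without the control of mouse 1. Averaged over its 2 kept probes Tmf1 was at -0.0021. Of 14 genes listed with Tmf1, 7 were higher and 7 lower, with a median of 0.0037. Among them were Rab6a, a Golgi GTPase that binds TMF1, and genes of the ubiquitin route. Rnf7, a RING subunit of cullin ligases, had the smallest p among the 14 (0.11 ± 0.06, SE). The ubiquitin-conjugating enzyme gene Ube2d2a (-0.04 ± 0.05) and Eloc, the elongin C gene (-0.05 ± 0.07), came next. The 2 kept Eloc probes averaged 0.027, on the other side of 0. In limma, 0 of the 14 had an adjusted or an unadjusted p under 0.05.

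The nuclear compartments that Trnp1 is known to affect in neural cells were each followed through a gene list. In limma, 0 members of these lists had an adjusted p under 0.05 over all probes. Of 28 nucleolar genes 12 were higher, with a median of -0.0066. Nucleolin, Ncl, was at 0.12 ± 0.055 (SE) with groups that did not overlap, from 3 Y RNA siRNA arrays because the spot of mouse 1 was flagged, but its 2 probes averaged 0.0047. Polr1c, a subunit of RNA polymerases I and III, was at 0.11 ± 0.06 (SE). Fibrillarin, Fbl, was at -0.07 ± 0.09. Of 26 genes of nuclear speckles and splicing 18 were higher, with a median of 0.024. The splicing factor gene Srsf9 was the member with an unadjusted p under 0.05 (-0.16 ± 0.06, SE), lower in all 4 mice. The related factor gene Rbm25 was at 0.09 ± 0.05, or 0.025 in the deposited value table. Its groups were apart by a narrow margin, with the lowest Y RNA siRNA array at 2.185 and the highest control at 2.184. Groups apart in that direction, as for Ncl and Rbm25, held for 1.31% of kept probes. Malat1, a long noncoding RNA of speckles, was at 0.19 ± 0.17. Of 26 chromatin genes 15 were higher, with a median of 0.014, and the DNA methyltransferase gene Dnmt3a (-0.17 ± 0.07, SE) was the member with an unadjusted p under 0.05. Lmna, the gene of lamins A and C, was at -0.10 ± 0.08. Over all 19168 gene names with a kept probe 53.0% were higher and the median was 0.0058.

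The difference in proliferation genes changed sign between mice. Of 34 genes of cell cycle progression with a kept probe, out of 36 listed, 28 were higher, with a median of 0.051, and 0 had an adjusted p under 0.05 in limma. The median difference was 0.28, -0.29, 0.05 and 0.17 in mice 1 to 4, so mouse 2 ran against the other 3. The median over all mice fell below 0 without the control array of mouse 1 (-0.063) or of mouse 4 (-0.014), without the Y RNA siRNA array of mouse 3 (-0.040), and without both arrays of mouse 1 (-0.012). It was 0.16 without the control of mouse 3 or without both arrays of mouse 2, and 0.13 without the control of mouse 2. Trnp1 was higher in mouse 2 as in the others. Cenpf, a kinetochore protein gene, was the member with an unadjusted p under 0.05 (-0.65 ± 0.22, SE, or -0.23 with normexp). Of 13 cell cycle inhibitor genes 11 were higher, with a median of 0.037, which was 0.0013 without the Y RNA siRNA array of mouse 1. Cdkn2a, the gene of p16 and p19ARF, was at -1.55, -1.64, -1.70 and -1.69 in mice 1 to 4 with the Y RNA siRNA and at -1.95, -1.84, -1.80 and -2.18 in the controls. Its groups did not overlap, as for 1.31% of kept probes in that direction. The difference was 0.30 ± 0.09 (SE), 0.23 with normexp, with a limma adjusted p of 1.00 and an unadjusted p of 0.0110.

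The cells carried macrophage markers, and the summed markers of each other cell type overlapped between the groups. Of 13 macrophage markers, among them Cd68, Csf1r and Adgre1, 12 had a kept probe, 4 were higher and 8 lower, and Marco, at 0.84 ± 0.36 (SE) and higher in 4 of 4 mice, was the member with an unadjusted p under 0.05 in limma. Their summed level was 10.67 to 10.86 with the Y RNA siRNA and 10.63 to 10.82 in the controls. A summed level here is the log2 of the summed linear values, so the brightest members of a list set most of it. Of 16 neural progenitor markers, 10 did not pass the filter, Pax6, Sox2 and Eomes among them. The other 6 split 3 higher and 3 lower, with a summed level of 0.17 to 0.60 against -0.019 to 0.60. Of 12 neuron markers 2 were kept, Snap25 (-0.13 ± 0.14, SE) and Syp (-0.02 ± 0.07), and Tubb3, Dcx and Map2 did not pass. Of neutrophil markers 7 of 12 were kept, 5 of them higher (summed level 2.34 to 2.75 against 2.19 to 2.79), and of lymphocyte markers 4 of 12, 2 higher (2.44 to 2.69 against 2.20 to 2.69). Of dendritic cell markers 6 of 11 were kept, 3 higher (7.84 to 8.04 against 7.74 to 7.95). Of fibroblast markers 10 of 12 were kept, 5 higher (1.74 to 2.37 against 1.55 to 2.46), and of osteoclast markers 9 of 10, 2 higher (4.73 to 6.77 against 4.90 to 6.86). Of erythroid and megakaryocyte markers 3 of 12 were kept, 2 higher (5.96 to 6.55 against 5.72 to 6.72). That summed level is nearly that of Pf4 alone (5.94 to 6.53 against 5.69 to 6.70). Of mast cell markers 3 of 10 were kept, all higher (-0.46 to 0.41 against -0.48 to -0.012). In each of these pairs the range with the Y RNA siRNA comes first and the ranges overlap. These ranges leave the pairing by mouse out. The median osteoclast marker difference was -0.18, -0.04, -0.08 and -0.19 in mice 1 to 4, and the neutrophil one 0.06, 0.004, 0.04 and 0.27. Without 1 array these medians ran from -0.27 to 0.078 and from -0.03 to 0.22. In the other marker lists the median changed sign between mice. In such bulk RNA fewer cells of a type and less RNA per cell cannot be told apart.

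Eng, Ddhd2 and Cst7 were the genes whose signal followed that of the downstream Trnp1 probe most closely over the 8 arrays. Such genes were chosen by their likeness to a probe whose groups are apart, so their own group differences follow from that choice and are given as a description, beside 1.31% of all kept probes with every Y RNA siRNA array above every control array. Likeness was measured by Pearson's r over 8 arrays for 12322 named genes, with the root mean square distance of centred levels beside it. It is a description, since the arrays share mice and fall into 2 siRNA groups, and 27 genes had r above 0.9 and 24 below -0.9. The most alike was Eng, the gene of endoglin, a coreceptor of TGF-beta, with r of 0.99. Its level was 1.71, 1.69, 1.76 and 1.68 in mice 1 to 4 with the Y RNA siRNA and 1.40, 1.36, 1.34 and 1.41 in the controls. The next were Ddhd2, a lipase gene (0.98), Cst7, the gene of the protease inhibitor cystatin F (0.97), Rcor1, the CoREST corepressor (0.97), the synaptotagmin gene Syt11 (0.97), the co-chaperone gene Dnajc18 (0.96), the inositol phosphate kinase gene Ipmk (0.96) and the zinc finger gene Zfp820 (0.95). With quantile normalization 5 of these 8 stayed among the 8 most alike, and Rcor1 and Ipmk moved to ranks 17 and 19. By distance the closest was Cst7, at 0.14. It was at 0.73, 0.62, 0.73 and 0.79 with the Y RNA siRNA and at 0.18, 0.01, -0.02 and 0.22 in the controls of mice 1 to 4. The upstream Trnp1 probe had an r of 0.80 and a distance of 0.30.

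Their differences were all smaller than that of the downstream Trnp1 probe. They were 0.33 for Eng, 0.16 for Ddhd2, 0.62 for Cst7, 0.18 for Rcor1, 0.40 for Syt11, 0.26 for Dnajc18, 0.12 for Ipmk and 0.45 for Zfp820. The most opposite genes were Btbd11 (r of -0.99), the endoplasmic reticulum gene Erp44 (-0.96), the ficolin gene Fcna (-0.96) and Shkbp1 (-0.96), each lower with the Y RNA siRNA in 4 of 4 mice. When the group means were first subtracted, so that only the variation within groups remained, other genes came first. These were Dpp6, a potassium channel subunit gene (r of 0.98), the lysosomal membrane gene Lamp3 (0.96), Taf1, a subunit of the general transcription factor TFIID (0.95), and the phosphatidate phosphatase gene Lpin3 (0.95). Their differences between the siRNA groups were within or near their errors, at -0.0076 ± 0.13, 0.02 ± 0.05, 0.05 ± 0.05 and 0.42 ± 0.33 (SE). The value of Lpin3 came from mouse 3, whose Y RNA siRNA array lay at -1.65 and the other 3 between -3.22 and -2.71, and it was 0.077 without that array.

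**Figure D5:**
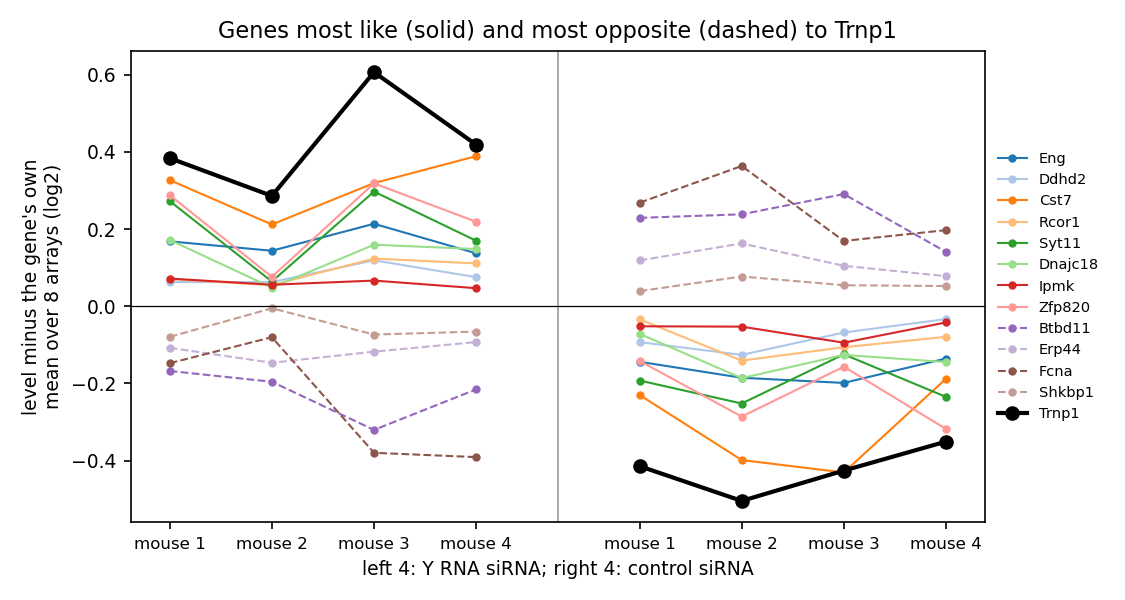
Level of each gene minus its own mean over the 8 arrays (y axis, log2), by array, for the downstream Trnp1 probe (black), the 8 genes with the highest r to it (solid) and the 4 with the lowest (dashed). Trnp1 has the widest step between the groups; Cst7 comes closest to it.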

How the data were processed

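Agilent 1-colour arrays (Cy3, 0.2 µg RNA) were read by the authors with Feature Extraction 10.7.3.1, per the file headers. The deposited intensity values per spot are background-subtracted and spatially detrended, and were left unnormalized across arrays, according to the deposited files. The deposited value table holds log2 values with column medians near 6.27. Its centring and method are not stated, and it served as an alternative. Its values followed the log2 raw spot median closely (lowest Pearson's r of 0.9998 for an array), and its columns shared a maximum of 18.6.

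The main values are log2 processed intensity minus the 75th percentile of non-control spots of the array, without flagged spots and averaged per probe. The fit took the 26828 of 55681 probes that were well above background on 4 or more arrays. It was made with limma 3.58.1 in R 4.3.3 (two-sided, Benjamini-Hochberg over all of them) and tested on simulated data. A gene was read on its kept probe of highest mean signal. Accessions of 26762 probes matched a RefSeq table (GRCm38.p6), used for names only; coordinates are the files' own, on mm9.

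The series design states 4 mice under both conditions, so the numbers are taken to pair the samples. After subtracting group means, arrays of the same mouse correlated at 0.588, 0.142, 0.534 and 0.248. The control array of mouse 2 correlated more with the Y RNA siRNA array of another mouse. Arrays of a mouse also lay side by side on the slide, so mouse and slide position cannot be told apart in these correlations. Separate cultures are not described, so p-values measure the spread between these samples. The SEs and p-values given for genes and lists come from the fit without a block. They leave the pairing out and also hold the spread between mice.

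Named were both Trnp1 probes, Tmf1, the 6 nearest neighbours (1 of them is not reported here), up to 4 members of smallest p per list described, the 8 genes most and the 4 least like Trnp1, the 4 most alike within groups, and 3 genes on either side of Trnp1 in size. A few further members are mentioned that were chosen after their values were seen. Members and the 16 lists were chosen with earlier results of these data known. The number of arrays limits the precision.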

Additional observations from a re-analysis of the deposited data

Results flagged for a closer look

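Within each group of 4 arrays, the lowest and highest level were compared with the other 3 for both Trnp1 probes and 88 named genes, and in 11 of 180 groups an array stood apart (gap to the next array over the group's range, above Dixon's critical value). Chance flags about 1 in 20 groups. On the upstream Trnp1 probe the Y RNA siRNA array of mouse 2 was low (-3.46, with the others between -3.21 and -3.20, gap over range 0.94). On the downstream probe no array stood apart.

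Mouse 1 accounted for 9 of the other 10. Its Y RNA siRNA array was low for the calgranulin gene S100a9 (0.957), Mmp9 (0.847), Pf4 (0.868), Lcn2 (0.871) and Sox1 (0.878). Its control array was low for Mmp9 (0.894), Elane (0.864) and Cxcl12 (0.85), and high for the macrophage factor gene Spi1 (0.848). Rab6a was high on the Y RNA siRNA array of mouse 3 (0.871). Without both arrays of mouse 1 the downstream Trnp1 difference was 0.86 and the upstream one 0.31.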

How the results depend on the processing

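The downstream Trnp1 difference, 0.85, was 0.70 in the deposited value table, 0.68 with normexp, 0.67 with normexp and quantile, and 0.56 as the mean of both probes. The upstream difference, 0.28, was 0.082 in the deposited value table, 0.083 with normexp, and 0.076 with normexp and quantile. Median centring and quantile alone moved both by less than the SD between arrays. Leaving out 1 array gave 0.79 to 0.89 and 0.22 to 0.34, and leaving out a mouse 0.79 to 0.87 and 0.22 to 0.31. Trnp1 was above 0 on both probes in all these settings. The cause of these changes was not tested; normexp adds an offset.

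The mouse as a fixed or random replicate block leaves the differences as they are. It raised the count of probes with an unadjusted p under 0.05 from 884 to 2283 (fixed) and 2372 (random), and the random block gave 3 with an adjusted p under 0.05: the downstream Trnp1 probe, Cst7 and A_55_P2069530, the last named after its values were seen. As these arrays chose Trnp1, this is no test of it. The unadjusted count was 510 with normexp, 1710 with no filter on dim probes, where 55681 were tested, and 682 to 1273 without 1 array (629 to 1296 without a mouse). The count with an adjusted p under 0.05 was 0 in all settings but the random block. The median difference of the chromosome 4 neighbours, 0.0027, was 0.031 with median centring, which moved the median of all probes to 0.034, and 0.036 within 150 kb. It ran between -0.016 and 0.027 without 1 array and between -0.0064 and 0.036 without a mouse. None of the neighbours or list members was called in any setting. Signal near background limits the upstream probe.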
